A study of Mus musculus with 9 samples.

Results

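Macrophage marker genes were followed across lung organoids grown from smoke-exposed and naïve mice. The genes were a list of 37 chosen for their use as macrophage markers, and each was read from the row of the array table that carries its symbol, with the row of the highest mean over all arrays taken where a gene has more than 1. The arrays measured 35 of the 37, out of 22180 genes named on them, and Spp1 and Ear2 had no row of their own. Of the 35, 25 are made in the lung mainly by leukocytes, mostly of the myeloid line, and are called myeloid-only genes here, although Ptprc, Cd53, Cd52 and Laptm5 mark leukocytes in general. The name is a label, and whether other cells of the organoids made some of them, such as Mpeg1 or Ctss, was not tested. The other 10 (Pparg, Cd14, Cd68, Ctsk, Atp6v0d2, Gpnmb, Lyz2, Apoe, Lpl and Fabp4) can also be made by epithelium, fibroblasts or other lung cells and are called shared genes. This division follows general knowledge of where the genes are made.

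Macrophages are phagocytes that arise under the transcription factor PU.1, encoded by Spi1, and depend on growth factor signals through receptors such as CSF1R. They sense particles and microbes through Fc, lectin and scavenger receptors, many of which signal through the adaptors TYROBP and FCER1G, and they break down what they take up with lysosomal proteases such as cathepsin S. In the lung, alveolar macrophages live in the airspace beside the type II epithelial cells, clear surfactant and inhaled particles, and increase in number in smokers.

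The study exposed male BALB/c mice, aged 8 to 12 weeks at the start, to cigarette smoke and grew lung organoids from them to follow the alveolar epithelium. The CSD14 group held organoids of mice exposed for 12 weeks, taken at culture day 14. The CSD5 group held organoids of mice with the same exposure, taken at culture day 5, and the ND14 group held organoids of naïve mice kept in clean air, taken at culture day 14. Each group had 3 arrays, numbered as biological replicates. Cells were released from the right lung by enzymes and scraping with no sort for a cell type, so leukocytes of the lung could be carried into all 3 groups, and a fixed number of cells was seeded in Matrigel. All cultures started in a proliferation medium with 5% serum for 6 days, followed by a differentiation medium with 2% serum, so the CSD5 organoids had not yet met the second medium. CSD14 and ND14 differ in smoke exposure at the same day, CSD14 and CSD5 differ in culture day and medium at the same exposure, and CSD5 and ND14 differ in all of these, which cannot be told apart in that comparison.

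RNA was read on Affymetrix Mouse Gene 2.0 ST arrays, which give 1 log2 signal for each of 34472 transcript clusters, the array's unit for a gene. A difference of 1 in log2 signal is a 2-fold difference. The array medians lay between 2.79 and 3.04, and signals close to the median cannot be told apart from background. A fold against a group at that level is therefore a lower bound. The epithelial markers Epcam, Cdh1, Krt8, Krt18, Krt19 and Cldn4 averaged 8.60 to 9.29 on every array, so epithelial transcripts were present in all groups. CSD5 replicate 1 stood apart from the other 2 CSD5 arrays and received the lowest array weight of the 9 in limma (0.329), so the results that rest on it are given with and without it. It was singled out because its values stood apart, in these genes as well, so leaving it out removes spread. The p-values without it can therefore be too small and serve only as descriptions. Whether this sample was labelled and harvested as stated could not be checked here. Nothing states that the replicates came from separate mice or cultures, so the p-values cover only the spread between these arrays, which may be technical. With 3 arrays against 3, an exact permutation test cannot fall below 0.10, and single genes were therefore tested with limma, with Benjamini-Hochberg adjustment over all clusters. In a bulk sample, fewer cells of a type and less RNA per cell cannot be told apart.

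Most myeloid-only genes had signals near background in the organoids of day 14. In 20 of the 25, all 6 arrays of CSD14 and ND14 lay within 1 log2 unit of the array median, against 34.4% of all clusters. In the CSD5 arrays 12 of the 25 stayed within that distance on all 3 arrays. The mean log2 signal over the 25 genes was 2.99, 2.91 and 3.03 in CSD14, 3.20, 3.94 and 3.86 in CSD5, and 2.93, 3.08 and 2.93 in ND14. Replicates 2 and 3 of CSD5 were thus the high arrays, replicate 1 lay between them and the rest, and CSD14 and ND14 overlapped. The mean over the 10 shared genes gave another order, with 4.71, 4.69 and 4.67 in CSD14, 5.83, 5.81 and 5.76 in CSD5, and 5.72, 5.79 and 5.72 in ND14, and there the CSD14 arrays were the low ones. That order rested on Fabp4 and Gpnmb, and over the other 8 genes the means were 4.96, 4.97 and 4.92 in CSD14, 5.14, 5.59 and 5.5 in CSD5, and 4.94, 5.06 and 4.96 in ND14.

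**Figure D1:**
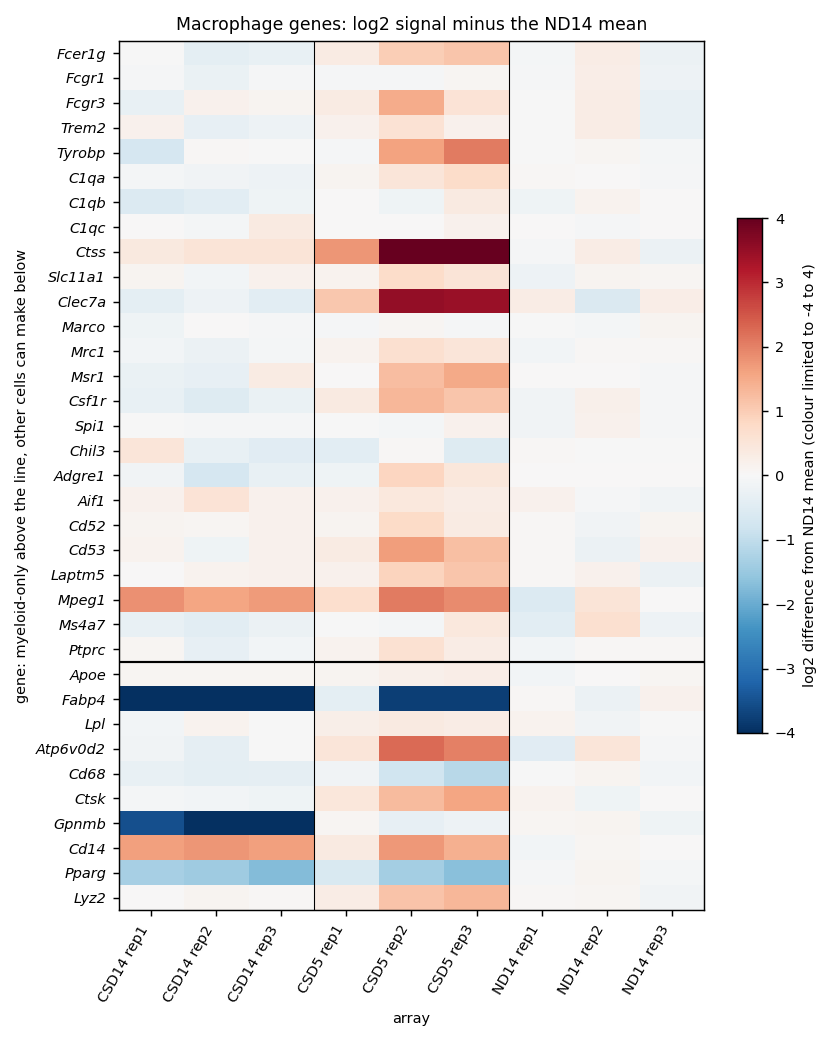
Log2 signal of each of the 35 macrophage genes (rows) on each of the 9 arrays (columns, CSD14, CSD5 and ND14 from left to right) minus the ND14 mean of that gene, with colours limited to 4 in either direction and the line parting the 25 myeloid-only genes above from the 10 shared genes below. The red block of myeloid-only genes lies in CSD5 replicates 2 and 3, and Mpeg1 and Cd14 are also red in CSD14, while Fabp4 and Gpnmb are deep blue in CSD14.

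In CSD5 against ND14, the receptor genes Clec7a, Csf1r, Msr1 and Fcgr3, the adaptor genes Tyrobp and Fcer1g and the protease gene Ctss had higher signals on CSD5 replicates 2 and 3 than on any ND14 array, while the differences of Spi1, Marco, Fcgr1, C1qb and C1qc were 0.07 or less in size. With all 3 CSD5 arrays, 0 of the 35 genes passed an adjusted p under 0.05, and of all clusters 0.0029% passed, a single one for the surfactant gene Sftpc. At an unadjusted p under 0.05, 20 of the 35 were higher and 3 lower, where 4.52% of all clusters were higher and 9.32% lower. The study's own rule asks for a fold change over 2 and a p under 0.05 without adjustment. Applied here to the limma values, it gave 8 higher and 2 lower, against 0.766% and 1.22% of all clusters. The study took its p-values and folds from its array software, so counts by this rule, here and below, are not the study's own. The median log2 difference was 0.42 over the myeloid-only genes and 0.24 over the shared genes, while that of all clusters was -0.09. Without CSD5 replicate 1, which leaves 2 arrays against 3, 17 of the 35 were called higher at an adjusted p under 0.05, against 3.4% of all clusters, and 3 were called lower, against 6.27%. The 17 included 13 of the 25 myeloid-only genes, whose median difference was then 0.60, beside -0.14 over all clusters. Leaving out any other single array gave 0 calls among the 35.

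Among the regulators, Csf1r, the receptor for the growth factors CSF1 and IL-34, had log2 signals of 3.75, 4.71 and 4.49 in CSD5 and 3.24, 3.59 and 3.34 in ND14. All 3 CSD5 arrays lay above all ND14 arrays, with replicate 1 the nearest. The log2 difference was 0.93 ± 0.22 (SE), a 1.90-fold higher signal, with a limma adjusted p of 0.195, and without CSD5 replicate 1 it was 1.21 ± 0.15 with an adjusted p of 0.000809. Spi1 had 3.28, 3.24 and 3.49 in CSD5 and 3.18, 3.49 and 3.25 in ND14, so the groups overlapped and the difference was 0.03 ± 0.12, or 0.06 without replicate 1. Its signals lay within 1 log2 unit of the array median on all 9 arrays.

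The ITAM adaptors hand signals from many myeloid receptors to the kinase SYK. Tyrobp, which encodes DAP12, had log2 signals of 3.19, 4.85 and 5.31 in CSD5 and 3.21, 3.31 and 3.16 in ND14. CSD5 replicate 1 sat among the ND14 arrays while the other 2 were far above them, so the difference of 1.22 ± 0.45 had an adjusted p of 0.284, and without that array it was 1.85 ± 0.23 with an adjusted p of 0.000767. Fcer1g, the Fc receptor gamma chain, had 3.84, 4.48 and 4.60 in CSD5 and 3.42, 3.81 and 3.27 in ND14, and all CSD5 arrays were above all ND14 arrays. Its difference was 0.81 ± 0.22 (adjusted p of 0.206), or 1.04 ± 0.18 without replicate 1 (adjusted p of 0.00537). Of the receptors that pair with these adaptors, Fcgr3 (CD16) had 3.56, 4.71 and 3.78 in CSD5 and 3.22, 3.53 and 2.94 in ND14, with no overlap, and an adjusted p of 0.274 with all arrays and 0.0514 without replicate 1. The lipid sensor Trem2 and the high-affinity receptor Fcgr1 overlapped between the groups, with differences of 0.31 ± 0.19 and -0.0033 ± 0.14. Mouse Fcgr3 has close relatives among the Fc receptor genes, and how far their probes share signal is not known here.

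Pattern recognition and scavenger receptors bind microbial sugars, oxidised lipid and debris. Clec7a, which encodes the beta-glucan receptor Dectin-1, had log2 signals of 3.60, 6.02 and 5.96 in CSD5 and 2.81, 1.93 and 2.79 in ND14. Every CSD5 array was above every ND14 array, and replicate 1 was 2.42 and 2.36 below the other 2. The difference was 2.68 ± 0.55, a signal at least 6.42-fold higher since ND14 was at background, with an adjusted p of 0.193, and 3.48 ± 0.24 without replicate 1 (adjusted p of 2.84e-05). Msr1, a class A scavenger receptor, had 2.39, 3.61 and 3.90 in CSD5 and 2.40, 2.42 and 2.35 in ND14, so replicate 1 lay within the ND14 range. Msr1 differed by 0.91 ± 0.34 (adjusted p of 0.291), or by 1.37 ± 0.20 without that array (adjusted p of 0.00228). The mannose receptor gene Mrc1 differed by 0.42 ± 0.14 (adjusted p of 0.244), or by 0.56 ± 0.12 without it (adjusted p of 0.0199). Marco, a scavenger receptor typical of resident alveolar macrophages, had 2.62, 2.75 and 2.62 in CSD5 and 2.64, 2.60 and 2.77 in ND14 and did not separate the groups on any array.

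The 3 chains of C1q, which starts the classical complement pathway, differed in their values. C1qa had log2 signals of 3.78, 4.16 and 4.40 in CSD5 and 3.73, 3.68 and 3.62 in ND14, with a difference of 0.44 ± 0.15 (adjusted p of 0.26), or 0.60 ± 0.12 without CSD5 replicate 1 (adjusted p of 0.0113). C1qb and C1qc overlapped between the groups, and their differences were 0.07 ± 0.16 and 0.06 ± 0.13. Chil3, the chitinase-like protein Ym1 that mouse alveolar macrophages make in quantity, was also without a separation at a difference of -0.30 ± 0.24. C1qb, C1qc and Chil3, like Marco and Fcgr1, lay within 1 log2 unit of the array median on all 9 arrays. Signals at that level cannot be told apart from background, so the lack of a difference in these genes says little.

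Among surface and haematopoietic genes, Cd53, a leukocyte tetraspanin, had log2 signals of 3.24, 4.59 and 4.12 in CSD5 and 2.97, 2.69 and 3.09 in ND14. All CSD5 arrays were above all ND14 arrays, with a difference of 1.07 ± 0.29 (adjusted p of 0.209), or 1.44 ± 0.18 without replicate 1 (adjusted p of 0.00103). Adgre1, which encodes the F4/80 antigen, had 2.99, 4.03 and 3.60 in CSD5 and 3.16 on each ND14 array, so replicate 1 lay under and the other 2 above. Its adjusted p stayed above the threshold also without replicate 1, at 0.0534. Laptm5, a lysosomal protein of blood cells, reached 3.68 and 3.91 in CSD5 replicates 2 and 3 against 2.98 in replicate 1, with ND14 at 2.86, 2.98 and 2.56. The Laptm5 difference was 0.72 ± 0.22 (adjusted p of 0.229), or 1.0 ± 0.15 without replicate 1 (adjusted p of 0.00261). Ptprc (CD45), Aif1 (IBA1) and Ms4a7 did not pass with or without that array, and Cd52 passed only without it, at an adjusted p of 0.0481.

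The phagocyte pore protein perforin-2, encoded by Mpeg1, and cathepsin S were among the myeloid-only genes of the widest differences. Mpeg1 had log2 signals of 4.14, 5.52 and 5.34 in CSD5 and 2.91, 3.97 and 3.48 in ND14, and the difference was 1.55 ± 0.36 (adjusted p of 0.195), or 1.98 ± 0.26 without CSD5 replicate 1 (adjusted p of 0.0011). Ctss had 5.67, 8.21 and 8.02 in CSD5 and 3.86, 4.21 and 3.67 in ND14, so the groups did not overlap, and replicate 1 lay between ND14 and the other 2 CSD5 arrays. The Ctss difference of 3.39 ± 0.54, a 10.5-fold higher signal, was the widest of all 35 genes among those that were higher, and had an adjusted p of 0.144. Without CSD5 replicate 1 it was 4.20 ± 0.16, an 18.4-fold higher signal, with an adjusted p of 1.05e-06. Slc11a1, the phagosomal metal transporter NRAMP1, had 2.82, 3.41 and 3.19 in CSD5 and 2.48, 2.79 and 2.75 in ND14, with a difference of 0.47 ± 0.16 (adjusted p of 0.268), or 0.63 ± 0.15 without replicate 1 (adjusted p of 0.026).

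**Figure D2:**
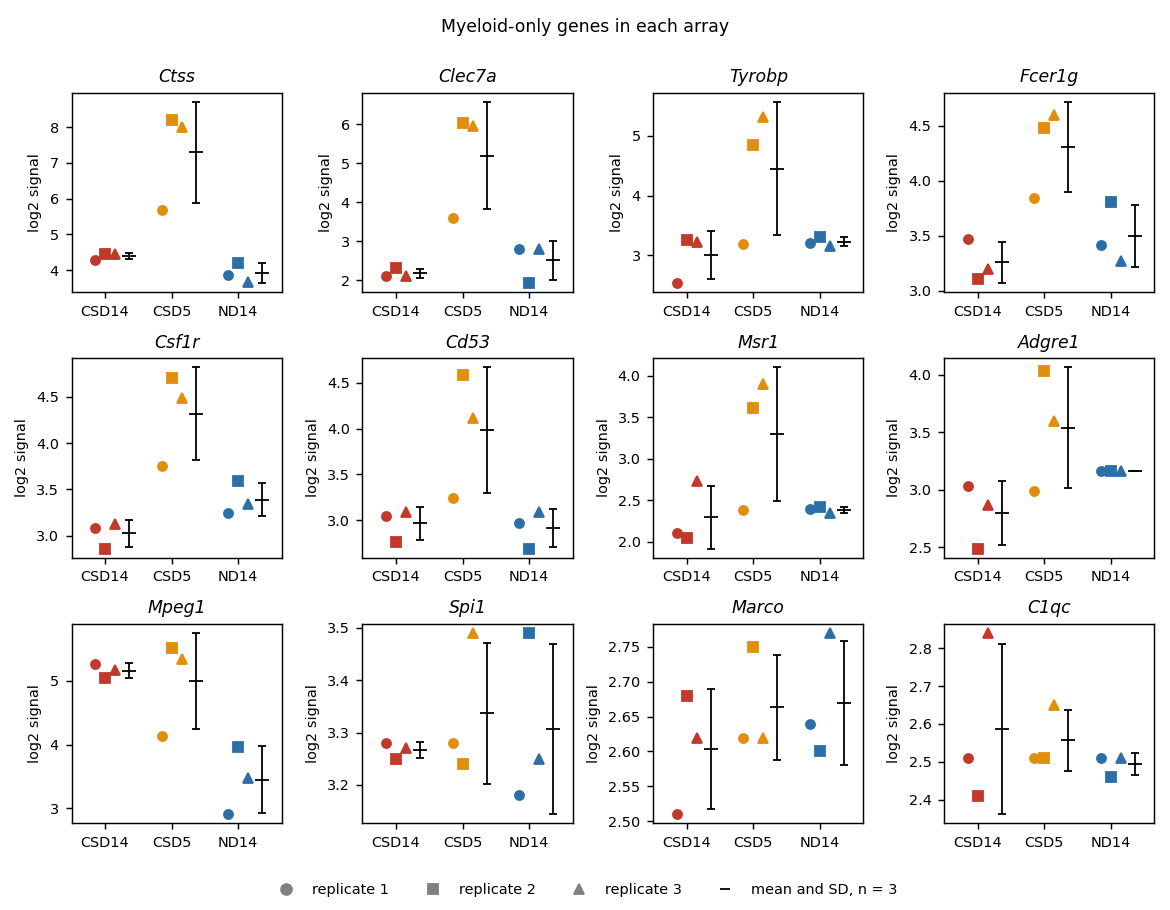
Log2 signal of 12 myeloid-only genes on each array, by group (CSD14, CSD5, ND14) with a marker shape for each replicate number and the mean with its SD (n = 3) beside each group; the vertical scales differ between panels. In Ctss, Clec7a, Tyrobp, Csf1r, Cd53 and Msr1 the circle of CSD5 replicate 1 lies under the square and triangle of replicates 2 and 3, Mpeg1 is also high in CSD14, and the groups overlap in Spi1, Marco and C1qc.

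The spread among the CSD5 arrays was itself uneven. CSD5 replicate 1 was below both other CSD5 arrays in 17 of the 25 myeloid-only genes, where 19.1% of all clusters had that order, and by over 1 log2 unit in 5 of the 25 (Clec7a, Ctss, Tyrobp, Msr1 and Mpeg1), where 0.789% of all clusters did. The first count depended on the scaling: it was 24 of 25 after centring each array on its median, where 41.7% of all clusters had that order, and 24 of 25 after quantile normalization, where 40.3% had it. CSD5 replicate 1 exceeded all ND14 arrays in 11 of the 25, replicate 2 in 19 and replicate 3 in 19, while 21.8%, 17.8% and 14.5% of all clusters did so on those arrays. In 24 of the 25, replicate 1 was closer to the ND14 mean than to the mean of the other 2 CSD5 arrays, as were 67.5% of all clusters, so this array was nearer to ND14 across the whole table as well. Where the mean of CSD5 replicates 2 and 3 lay over 1 log2 unit from ND14, this held for 95.4% of clusters and 9 of 9 myeloid-only genes. It was thus not particular to the macrophage genes. The other 2 arrays were alike, and over the 25 genes the median size of their difference was 0.24.

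**Figure D3:**
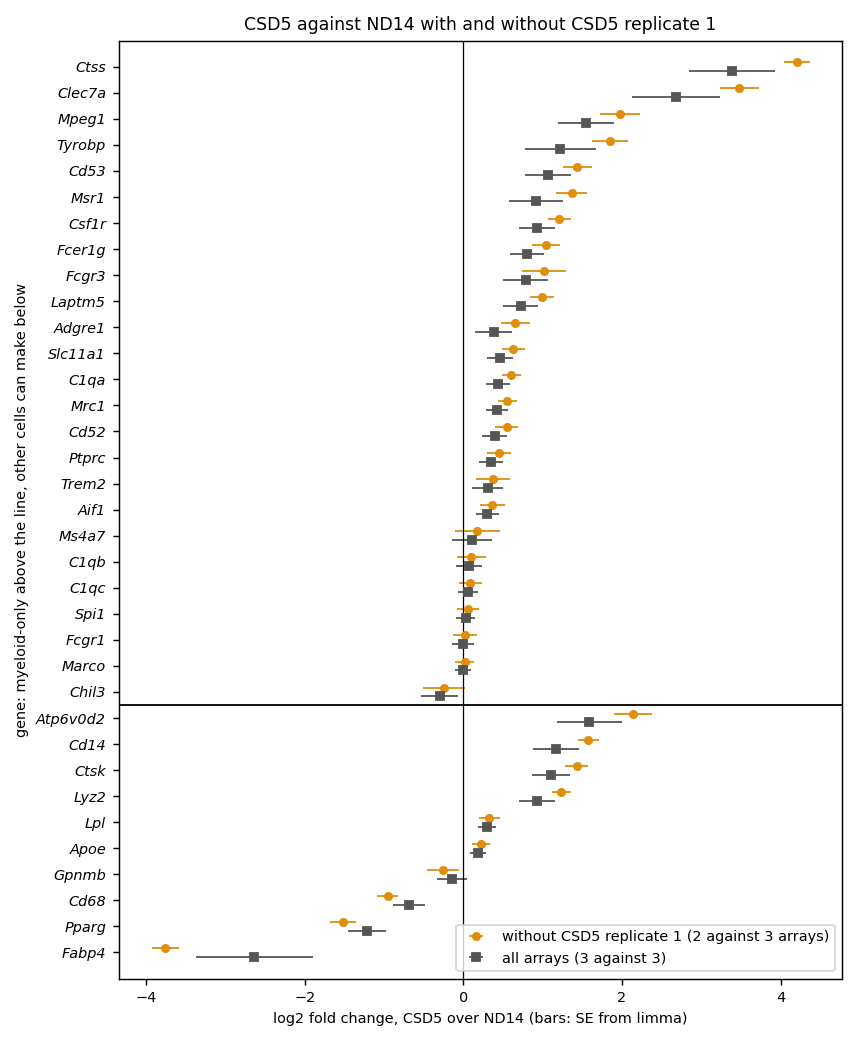
Log2 difference of CSD5 minus ND14 for each of the 35 genes (rows; 25 myeloid-only genes above the line and 10 shared genes below), as estimated by limma with its SE, without CSD5 replicate 1 (circles, 2 arrays against 3) and with all arrays (squares, 3 against 3). For Ctss the circle stands at 4.20 and the square at 3.39, and leaving out the array narrows the SE bars of the genes with wide differences.

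In CSD14 against CSD5, which follows smoke-exposed organoids to the later day and the second medium, the macrophage genes that passed were all lower at day 14. At an adjusted p under 0.05, 0 of the 35 were higher and 7 were lower (Gpnmb, Fabp4, Clec7a, Ctss, Csf1r, Ctsk and Fcer1g), where 1.91% of all clusters were higher and 0.496% lower. By the study's rule 0 were higher and 11 lower, against 0.957% and 0.833% of all clusters. Of the 25 myeloid-only genes 4 fell, and the median log2 difference was -0.47 over the 25 and -0.58 over the shared genes, beside 0.09 over all clusters. In 10 of the 25 every CSD14 array was below every CSD5 array, an order that 4.19% of all clusters had, and 0 of the 25 had the reverse order, which 14.0% of all clusters had. Without CSD5 replicate 1, 11 of the 25 were called lower and 0 higher, where 1.24% of all clusters were lower and 2.87% higher.

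Ctss fell, with log2 signals of 4.29, 4.44 and 4.44 in CSD14 and 5.67, 8.21 and 8.02 in CSD5, a difference of -2.91 ± 0.54 and a 7.52-fold lower signal (limma adjusted p of 0.0277). Clec7a fell by 3.02 ± 0.55 (adjusted p of 0.0261), to 2.11, 2.31 and 2.10 in CSD14 against 3.60, 6.02 and 5.96 in CSD5. Csf1r fell by 1.29 ± 0.22 (adjusted p of 0.0208), to 3.08, 2.86 and 3.13 in CSD14 against 3.75, 4.71 and 4.49 in CSD5. In all of these genes the CSD14 arrays formed a tight group under even the lowest CSD5 array. Fcer1g fell by 1.05 ± 0.22 (adjusted p of 0.0392), to 3.47, 3.11 and 3.20 in CSD14. Without CSD5 replicate 1 Ctss fell by 3.73, a 13.2-fold lower signal, Clec7a by 3.82, Csf1r by 1.58 and Fcer1g by 1.28, with adjusted p of 7.87e-06 to 0.00514. Tyrobp had 2.54, 3.26 and 3.22 in CSD14 and did not pass, at -1.44 ± 0.45 and an adjusted p of 0.146, with CSD5 replicate 1 at 3.19. Without that array the difference was -2.07 ± 0.23 (adjusted p of 0.00136). Each of the 4 calls was lost when any 1 of the CSD14 arrays or CSD5 replicate 3 was left out, those of Ctss, Clec7a and Fcer1g also without CSD5 replicate 2 or ND14 replicate 1, those of Ctss and Fcer1g without ND14 replicate 3 and that of Ctss without ND14 replicate 2, with adjusted p of 0.0518 to 0.133. All 4 were also lost when only the 6 arrays of these groups were fitted, with adjusted p of 0.0941 to 0.121.

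Mpeg1 did not share this course, with 5.27, 5.04 and 5.17 in CSD14 and 4.14, 5.52 and 5.34 in CSD5. The groups overlapped, and the difference was 0.16 ± 0.36, or -0.27 ± 0.26 without CSD5 replicate 1.

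In CSD14 against ND14, which compares smoke exposure at the same day, 4 of the 5 macrophage genes called were shared genes. At an adjusted p under 0.05, 5 of the 35 passed (14.3%), where 9.15% of all clusters passed. They were Mpeg1 and Cd14, which were higher (5.48% of all clusters were), and Fabp4, Gpnmb and Pparg, which were lower (3.66%). By the study's rule 2 were also higher and 3 lower, against 2.31% and 2.44% of all clusters. Mpeg1 was the 1 myeloid-only gene of the 25 among the calls at the adjusted p. Its log2 signals were 5.27, 5.04 and 5.17 in CSD14 and 2.91, 3.97 and 3.48 in ND14, and no arrays overlapped. The difference was 1.71 ± 0.36, a 3.26-fold higher signal (limma adjusted p of 0.0149), and this call was lost when CSD14 replicate 1, CSD14 replicate 3, ND14 replicate 1 or ND14 replicate 3 was left out, with adjusted p of 0.0555 to 0.0637. The median difference was -0.09 over the 25 and -0.14 over the shared genes, beside 0.00 over all clusters.

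Other genes that mark the line did not pass in this comparison. Ctss had log2 signals of 4.29, 4.44 and 4.44 in CSD14 and 3.86, 4.21 and 3.67 in ND14, which did not overlap, with a difference of 0.48 ± 0.54 and an adjusted p of 0.752. Csf1r had 3.08, 2.86 and 3.13 in CSD14 and 3.24, 3.59 and 3.34 in ND14, all CSD14 arrays under all ND14 arrays, with a difference of -0.37 ± 0.22 and an adjusted p of 0.458. Adgre1 and C1qa likewise had every CSD14 array below every ND14 array and did not pass, at -0.36 ± 0.24 and -0.13 ± 0.15.

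The shared genes varied more widely and in several patterns. Gpnmb, a membrane glycoprotein of lysosome-rich cells that macrophages, melanocytes and some epithelia make, had log2 signals of 4.62, 3.92 and 4.03 in CSD14, 8.20, 7.81 and 7.93 in CSD5, and 8.21, 8.22 and 7.94 in ND14. CSD5 and ND14 overlapped closely, all 3 CSD5 arrays included, and CSD14 lay far below both. Gpnmb fell by 3.93 ± 0.19 in CSD14 against ND14, a 15.3-fold lower signal (limma adjusted p of 9.12e-05), and by 3.79 ± 0.19 in CSD14 against CSD5, 13.8-fold lower (adjusted p of 0.00013). Both calls passed under each alternative tried, and CSD5 against ND14 gave -0.14 ± 0.19. Gpnmb did not have the order of the receptors among the CSD5 arrays, and replicate 1 was the highest of the 3.

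Fabp4, a fatty acid binding protein of alveolar macrophages, fat cells and endothelium, had log2 signals of 2.83, 3.19 and 3.32 in CSD14, 9.0, 5.62 and 5.62 in CSD5, and 9.43, 9.16 and 9.56 in ND14. The CSD14 arrays were at background, the ND14 arrays were high, and in CSD5 replicate 1 was near ND14 while the other 2 lay midway. It fell by 6.27 ± 0.74 in CSD14 against ND14, a signal at least 77.2-fold lower since CSD14 was at background (adjusted p of 0.00134), and by 3.63 ± 0.74 in CSD14 against CSD5 (adjusted p of 0.0374). Without CSD5 replicate 1 the fall against CSD5 was smaller, at 2.51 ± 0.17 (adjusted p of 0.000103). The call against CSD5 was lost without any 1 of the CSD14 arrays and without any 1 of the ND14 arrays, which share the estimate of spread, with adjusted p of 0.0671 to 0.143. In CSD5 against ND14 the difference was -2.64 ± 0.74 (adjusted p of 0.221), and -3.76 ± 0.17 without CSD5 replicate 1 (adjusted p of 2.33e-06). In this gene CSD5 replicate 1 was 3.38 above each of the other CSD5 arrays, whereas in the receptors it was the low one.

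Pparg, the nuclear receptor that drives the alveolar macrophage programme and is also present in type II and lipid-storing cells, had log2 signals of 5.47, 5.36 and 5.05 in CSD14, 6.19, 5.44 and 5.11 in CSD5, and 6.74, 6.92 and 6.73 in ND14. All smoke-exposed arrays, of day 5 and of day 14, lay under all naïve arrays, which are of day 14 only. Pparg fell by 1.5 ± 0.24 in CSD14 against ND14, a 2.84-fold lower signal (adjusted p of 0.00465), and the difference was -1.22 ± 0.24 in CSD5 against ND14 (adjusted p of 0.177), or -1.52 ± 0.16 without CSD5 replicate 1 (adjusted p of 0.000327). Cd68, the lysosomal glycoprotein macrosialin, had 9.20, 9.13 and 9.15 in CSD14, 9.36, 8.70 and 8.40 in CSD5, and 9.50, 9.62 and 9.40 in ND14. The naïve arrays were again the highest, and in CSD5 against ND14 the difference was -0.69 ± 0.21 (adjusted p of 0.229), or -0.96 ± 0.13 without replicate 1 (adjusted p of 0.00142). Cd68 was lowest on CSD5 replicates 2 and 3, the arrays on which Ctss and Clec7a were highest.

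Cd14, the lipopolysaccharide co-receptor that alveolar type II and airway cells also make, had log2 signals of 8.10, 8.22 and 8.09 in CSD14, 6.82, 8.20 and 7.87 in CSD5, and 6.36, 6.55 and 6.48 in ND14. CSD14 and CSD5 replicates 2 and 3 were high, and CSD5 replicate 1 lay just above ND14. It was higher in CSD14 than in ND14 by 1.67 ± 0.29, a 3.19-fold difference (adjusted p of 0.00609), and in CSD5 against ND14 the difference was 1.17 ± 0.29 (adjusted p of 0.197), or 1.57 ± 0.13 without replicate 1 (adjusted p of 8.68e-05). Lyz2, the lysozyme of macrophages and type II cells, had 5.62, 5.72 and 5.63 in CSD14, 5.90, 6.74 and 6.92 in CSD5, and 5.65, 5.67 and 5.47 in ND14. Here CSD14 and ND14 overlapped and all CSD5 arrays were above both, with a difference of 0.92 ± 0.23 in CSD5 against ND14 (adjusted p of 0.196), or 1.23 ± 0.12 without replicate 1 (adjusted p of 0.000201). The Lyz2 probes may also read its close relative Lyz1, and that was not tested.

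Ctsk, a collagen-cleaving protease of osteoclasts, macrophages and fibroblasts, had log2 signals of 2.70, 2.66 and 2.62 in CSD14, 3.23, 4.04 and 4.37 in CSD5, and 2.93, 2.60 and 2.80 in ND14. All CSD5 arrays were above the other 6, and Ctsk fell by 1.22 ± 0.24 in CSD14 against CSD5 (adjusted p of 0.0351), a call that was lost when any 1 array other than CSD5 replicate 1 was left out, with adjusted p of 0.0569 to 0.122. Atp6v0d2, a subunit of the proton pump that acidifies lysosomes, had 1.96, 1.75 and 2.08 in CSD14, 2.58, 4.35 and 4.13 in CSD5, and 1.66, 2.58 and 2.06 in ND14, with a difference of -1.76 ± 0.41 in CSD14 against CSD5 (adjusted p of 0.0616), or -2.31 ± 0.24 without CSD5 replicate 1 (adjusted p of 0.00101). Apoe lay between 3.63 and 4.0 and Lpl between 2.79 and 3.27 over all 9 arrays, and neither passed in any comparison.

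**Figure D4:**
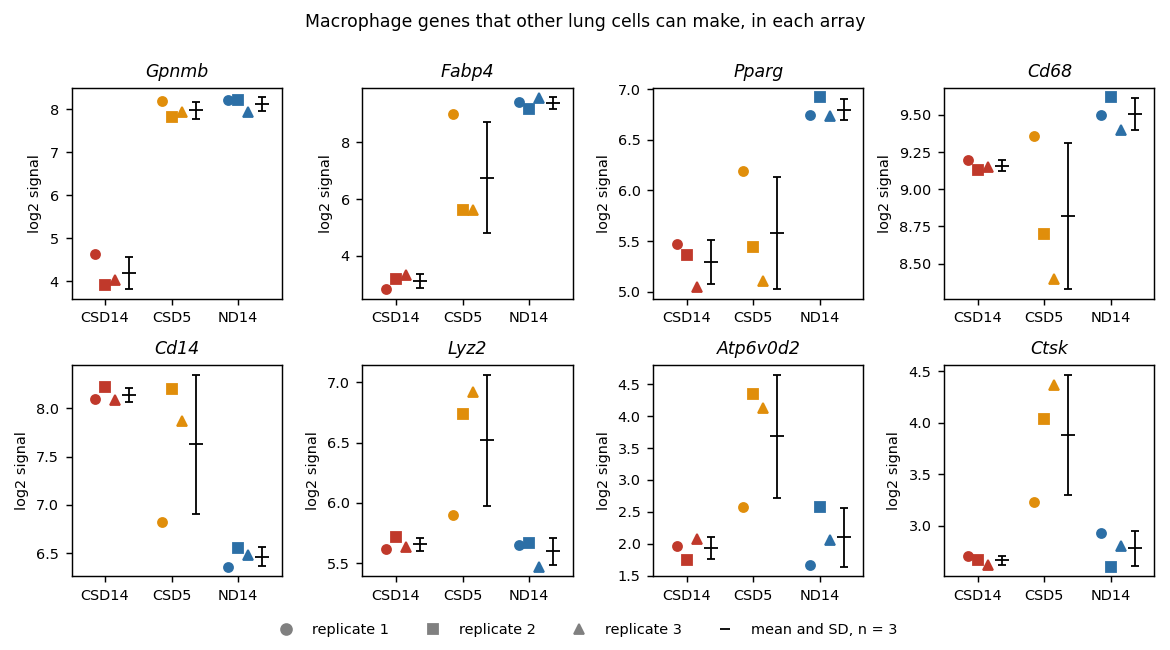
Log2 signal of 8 shared macrophage genes on each array, by group (CSD14, CSD5, ND14) with a marker shape for each replicate number and the mean with its SD (n = 3) beside each group; the vertical scales differ between panels. Gpnmb and Fabp4 are low in CSD14 (4.62 and 3.32 at most), Pparg and Cd68 are highest in ND14, Cd14 is high in CSD14, and Lyz2, Atp6v0d2 and Ctsk are highest in CSD5 replicates 2 and 3.

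Promoter sequence was read for all members with a window, because PU.1 acts at the promoters of many myeloid genes. The RefSeq windows of build GRCm38.p6, each of 300 bases from 250 before the start to 50 after it, were found for 24 of the 35 measured genes, 18 of them myeloid-only. The PU.1 core, spelled GAGGAAGT and searched on both strands, was in the windows of 3 of the 18 (16.7%) and of 0 of the 6 measured shared genes, against 3.69% of 27025 genes with a window. The first of the 3 is Ctss (chr3:95526536-95526835, plus strand), the second Cd53 (chr3:106790100-106790399, minus strand) and the last C1qc (chr4:136892865-136893164, minus strand). Capitals mark the match, which in each case lies on the opposite strand and so reads as the reverse complement of the core.
Ctss: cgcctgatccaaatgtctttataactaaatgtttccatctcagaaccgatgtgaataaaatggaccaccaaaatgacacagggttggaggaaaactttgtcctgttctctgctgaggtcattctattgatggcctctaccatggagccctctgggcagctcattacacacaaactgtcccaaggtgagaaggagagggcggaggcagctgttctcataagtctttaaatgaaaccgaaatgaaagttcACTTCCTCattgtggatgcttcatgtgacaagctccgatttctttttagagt
Cd53: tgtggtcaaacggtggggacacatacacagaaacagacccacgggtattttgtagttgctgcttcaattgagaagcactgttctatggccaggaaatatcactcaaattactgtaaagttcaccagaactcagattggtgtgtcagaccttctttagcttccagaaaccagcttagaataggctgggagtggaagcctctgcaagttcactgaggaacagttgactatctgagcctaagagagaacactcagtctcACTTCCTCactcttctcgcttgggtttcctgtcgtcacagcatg
C1qc: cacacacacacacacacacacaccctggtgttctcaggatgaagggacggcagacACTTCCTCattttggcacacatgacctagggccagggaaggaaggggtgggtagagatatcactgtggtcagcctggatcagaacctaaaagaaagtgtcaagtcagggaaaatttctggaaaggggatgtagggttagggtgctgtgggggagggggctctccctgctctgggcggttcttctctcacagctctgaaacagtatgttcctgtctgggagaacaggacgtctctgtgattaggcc
In Ctss the match spans bases 249 to 256 of the window and in Cd53 bases 257 to 264, so both lie at the start site, and in C1qc it spans bases 56 to 63. Ctss and Cd53 were both higher on CSD5 replicates 2 and 3, while C1qc, with the same letters, lay within 1 log2 unit of the array median on all 9 arrays. Clec7a and Fcer1g have windows without the core. Of the unmeasured members, Spp1, which was placed with the shared genes, has the core in 1 of its windows, and Ear2 does not have it. With so few genes, the shares do not set the myeloid-only genes apart from the shared ones. The letters TGANTCA, the AP-1 motif, were in the windows of 2 of the 18 myeloid-only genes and 2 of the 6 shared genes (Gpnmb and Cd68), against 8.97% of genes, and the E-box CACGTG was in none of these 24, against 8.09% of genes. Gpnmb (chr6:49036268-49036567, plus strand), whose calls held in each alternative tried, is shown with its AP-1 letters in capitals, at bases 259 to 265.
Gpnmb: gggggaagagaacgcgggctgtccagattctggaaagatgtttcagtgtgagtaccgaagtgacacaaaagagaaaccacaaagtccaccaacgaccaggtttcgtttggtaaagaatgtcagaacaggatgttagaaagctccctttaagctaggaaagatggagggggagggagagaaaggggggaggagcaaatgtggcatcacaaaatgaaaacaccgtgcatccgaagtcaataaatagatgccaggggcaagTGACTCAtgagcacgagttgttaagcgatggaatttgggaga
A match is a description of the sequence and neither a site of binding nor a cause, and windows without a match say only that the letters are not in those bases.

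Other genes of the macrophage programme, taken from lists outside the 37, were read beside them. In CSD5 against ND14 with all arrays 0.0029% of all clusters passed, so 0 calls there say little about a list. Without CSD5 replicate 1, left out after its values were seen, 3.4% of all clusters were called higher and 6.27% lower. Of 14 further alveolar macrophage genes, 0 passed in CSD5 against ND14 with all arrays, and 4 were called higher and 1 lower without CSD5 replicate 1. In CSD14 against CSD5 2 fell with all arrays, where 0.496% of all clusters did. In CSD14 against ND14 1 was higher, the lipid receptor gene Cd36, by 0.91 ± 0.21 (adjusted p of 0.0255), where 5.48% of all clusters were. Without CSD5 replicate 1, which changes only the spread there, 1 was higher and 3 lower, and the share of all clusters is not given here. The 2 that fell against CSD5 were Mmp12, the macrophage elastase, and the chemokine gene Ccl6. Mmp12 had log2 signals of 2.93, 2.32 and 2.41 in CSD14, 4.08, 8.47 and 8.51 in CSD5, and 3.24, 3.20 and 3.24 in ND14. Replicates 2 and 3 of CSD5 were over 4 log2 units above replicate 1, and Mmp12 fell by 4.47 ± 0.96 in CSD14 against CSD5 (adjusted p of 0.0439), or by 5.94 ± 0.17 without replicate 1 (adjusted p of 9.71e-07). Ccl6 had 3.76, 3.26 and 3.23 in CSD14, 5.05, 7.66 and 7.66 in CSD5, and 3.86, 4.03 and 3.54 in ND14, and fell by 3.37 ± 0.59 (adjusted p of 0.0209), or by 4.24 ± 0.19 without replicate 1 (adjusted p of 1.01e-05). Of 8 macrophage cytokine genes and 7 genes of macrophage growth factors and their receptors, 0 passed in any comparison with all arrays, and 3 and 2 were called higher in CSD5 against ND14 without CSD5 replicate 1. Siglecf, the surface lectin that defines resident alveolar macrophages in the mouse, lay between 2.22 and 2.89 and did not pass in any comparison. It was under the array median on all 9 arrays, so its lack of a difference says little.

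The list of ITAM signalling genes had 16 measured members, of which 0 passed in CSD5 against ND14 with all arrays. Without CSD5 replicate 1, 4 were called higher, where 3.4% of all clusters were. The lectin receptors Clec4n and Clec4e fell in CSD14 against CSD5, by 1.80 ± 0.37 (adjusted p of 0.0401) and 0.98 ± 0.19 (adjusted p of 0.0319). In that comparison 0.496% of all clusters were called lower. Clec4n had log2 signals of 3.52, 3.87 and 4.18 in CSD14, 4.61, 6.25 and 6.10 in CSD5, and 3.49, 3.44 and 3.69 in ND14, again with CSD5 replicate 1 between the groups. The kinase gene Syk did not pass in any comparison and lay between 2.73 and 3.26. Of 11 macrophage transcription factors, 1 passed in CSD14 against ND14, Maf, which fell by 1.35 ± 0.26 (adjusted p of 0.0106), where 3.66% of all clusters were lower. In the other comparisons 0 passed with all arrays.

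The phagocyte oxidase, which makes superoxide in macrophages and neutrophils and parts of which epithelia also make, took another course. Cybb, its catalytic subunit, had log2 signals of 7.71, 7.47 and 7.82 in CSD14, 4.90, 7.60 and 7.77 in CSD5, and 3.03, 3.47 and 3.01 in ND14. Like Mpeg1 and Cd14, it was high in CSD14 and in CSD5 replicates 2 and 3 and low in ND14, with CSD5 replicate 1 between. Of the 5 oxidase genes measured, Cybb and its partner Cyba passed as higher in CSD14 against ND14, by 4.50 ± 0.62 (adjusted p of 0.0024) and 2.08 ± 0.29 (adjusted p of 0.00255), and the other 3 did not. Cyba also rose in CSD14 against CSD5, by 1.38 ± 0.29 (adjusted p of 0.0416). Among 12 leukocyte-wide genes Lcp1 and Arhgdib rose in CSD14 against ND14, by 1.78 ± 0.20 (adjusted p of 0.00102) and 2.22 ± 0.31 (adjusted p of 0.00253), and the other 10 did not pass. Lcp1 was at 5.51 or above on every array, while Itgal, Coro1a, Cytip and Dock2 lay near or below the array median throughout. The rise of Lcp1 and Arhgdib is therefore not a measure of leukocytes. In CSD14 against CSD5 Selplg fell by 1.32 ± 0.24 (adjusted p of 0.0235). Of 13 monocyte and interstitial macrophage genes, the chemokine receptor gene Ccr2 and Mertk rose in CSD14 against ND14, by 1.53 ± 0.20 (adjusted p of 0.00192) and 0.70 ± 0.18 (adjusted p of 0.0367). Of these 13, only Ccr2 also rose in CSD14 against CSD5, by 1.14 ± 0.20 (adjusted p of 0.0204). Beside these counts, 5.48% of all clusters were called higher in CSD14 against ND14. In CSD14 against CSD5, 1.91% of all clusters were called higher and 0.496% lower.

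**Figure D5:**
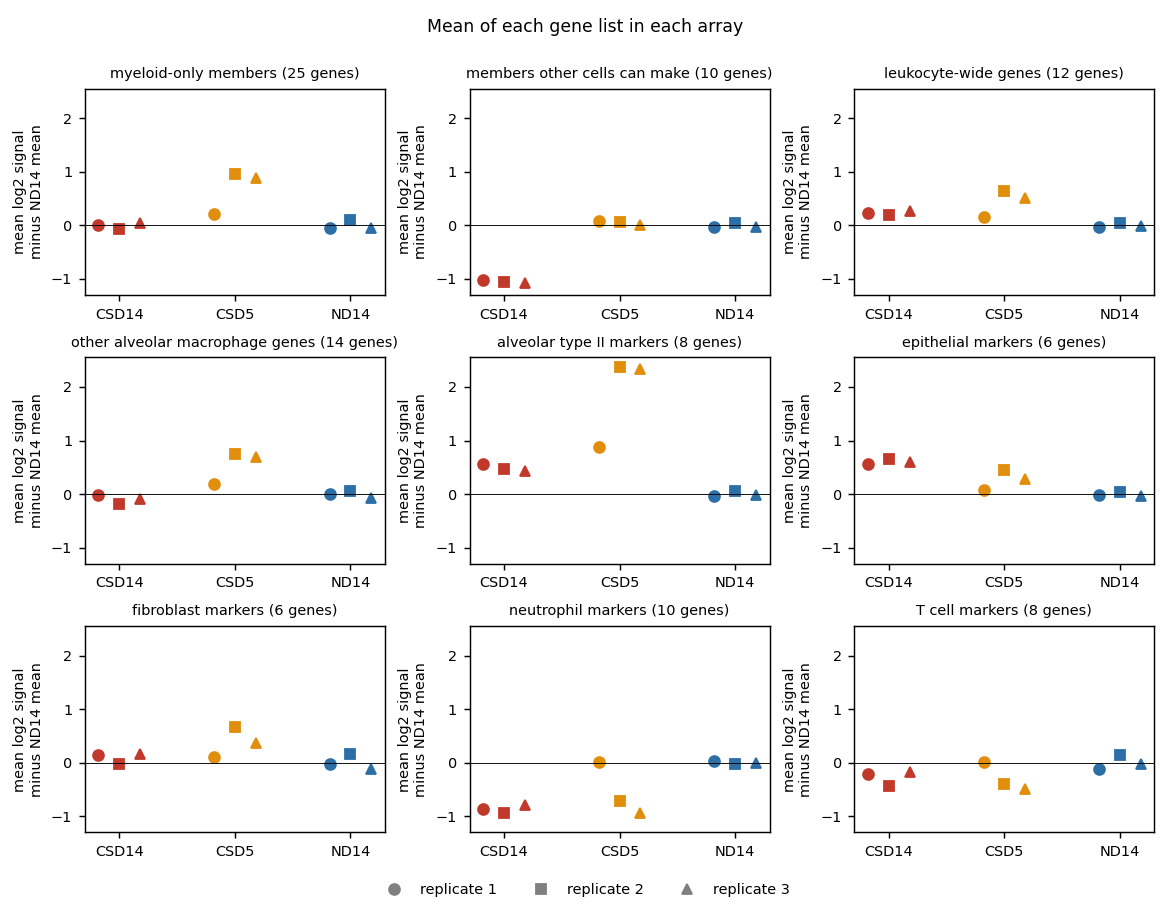
Mean log2 signal of 9 gene lists on each array minus the mean of the 3 ND14 arrays, by group (CSD14, CSD5, ND14) with a marker shape for each replicate number. The alveolar type II markers average 7.59 and 7.55 on CSD5 replicates 2 and 3 and 6.10 on replicate 1, the same order as the myeloid-only genes, and the neutrophil list runs the other way.

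Markers of other cells moved with these results. The 8 alveolar type II markers averaged 5.78, 5.69 and 5.65 in CSD14, 6.10, 7.59 and 7.55 in CSD5, and 5.18, 5.27 and 5.19 in ND14, so that CSD5 replicates 2 and 3 were the high arrays here too. Without replicate 1, 8 of the 8 were called higher in CSD5 against ND14, where 3.4% of all clusters were. Sftpc, the surfactant protein C gene, had 4.55, 4.25 and 3.95 in CSD14, 9.49, 11.29 and 11.49 in CSD5, and 5.74, 5.79 and 5.79 in ND14. Not all of the list had that order. Sftpb, Sftpd and Abca3 had their highest means in CSD14 (7.04, 8.73 and 7.83, against 4.99, 6.65 and 6.72 in ND14), and the rest in CSD5. In CSD14 against ND14, 3 of the 8 were called higher and 0 lower, where 5.48% and 3.66% of all clusters were. Among the 6 fibroblast markers only Dcn, named after its values were seen, stood out, with 3.29, 6.63 and 4.99 in CSD5 and 3.02, 3.16 and 2.84 in ND14, while Col1a1 and Col1a2 lay between 3.26 and 3.84. The part of these cells in the result was not tested. The 10 neutrophil markers averaged 3.50, 3.43 and 3.57 in CSD14, 4.37, 3.64 and 3.42 in CSD5, and 4.40, 4.33 and 4.36 in ND14, so CSD5 replicate 1 lay with ND14. That order came mainly from S100a8, S100a9 and Cxcr2. Csf3r, Retnlg, Ngp and Camp lay below the array median on every array, and Ltf and Mmp8 had their lowest means in ND14. The list mean is therefore not a measure of neutrophils. In CSD14 against ND14, S100a8 fell by 2.63, S100a9 by 3.74 and Cxcr2 by 2.38 while Ltf rose by 0.80, with limma adjusted p of 0.00886 to 0.0296.

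The lists of lymphocyte and of other blood or vessel cell markers averaged near background, although Cd5 lay above it in ND14 and Cd209a on all arrays. The T cell list averaged 2.90, 2.69 and 2.94 in CSD14, 3.13, 2.72 and 2.61 in CSD5, and 2.99, 3.25 and 3.09 in ND14, and 1 of its 8 genes passed with all arrays, Cd5, which fell by 1.80 ± 0.29 (adjusted p of 0.00468), to 3.89, 3.17 and 3.59 in CSD14 against 5.41, 5.46 and 5.17 in ND14. Of the B cell, NK cell, mast cell and eosinophil, endothelial and adipocyte lists, 0 genes passed in any comparison, with or without CSD5 replicate 1, and their array means lay between 1.93 and 3.0. The MHC class II list, whose products present antigen, also gave 0 calls, with array means of 3.42 to 3.74. Of the 5 dendritic cell markers measured, Cd209a rose in CSD14 against ND14, by 1.31 ± 0.24 (adjusted p of 0.0089). Of 13 lysosome genes that all cells make, 5 rose and 1 fell in CSD14 against ND14, with Hexa, Ctsh, Psap and Cd63 rising by 0.39 to 1.76. Of 6 epithelial markers 4 rose, and of 7 airway and alveolar type I markers 4 rose and 2 fell. In that comparison 5.48% of all clusters were called higher and 3.66% lower.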

How the data were processed

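RNA of 9 lung organoid cultures was read on Affymetrix Mouse Gene 2.0 ST arrays from 10 ng of total RNA each, with groups and replicate numbers taken from the sample labels. For every transcript cluster the authors deposited a log2 signal normalized in Transcriptome Analysis Console 4.0.3. The algorithm is not given in the sources used here. These values were used without further scaling or filter, and 0 columns belonged to no sample of the series. Of 34472 transcript clusters, 23521 carry 1 gene symbol, 1820 several and 9131 none, and only those with 1 symbol were used for named genes. Spp1 and Ear2 had no such cluster and were not analysed here, and Lpl had 2 clusters.

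Group differences came from limma 3.58.1 (R 4.3.3), as 1 model of the 3 groups over 9 arrays with empirical Bayes moderation and two-sided tests, and p-values were adjusted by Benjamini-Hochberg over all 34472 clusters. The number of arrays limits the precision. The members, the division into myeloid-only and shared genes and the 22 other lists (198 genes, 184 measured) were chosen with earlier results of these data known. The text names all measured members. From each other list it draws on up to 4 genes per comparison with the smallest adjusted p among those that passed, or the first 2 measured where none passed. Not all of these are named, and lists that bear less on the macrophage genes are given by counts or averages. Alternatives changed the scaling (quantile normalization or centring on array medians), the model (array weights, replicate numbers as blocks, the compared 6 arrays alone), the moderation (none, or a robust trend), the clusters (those above the 40th percentile by mean signal, or the mean over a gene's clusters), the call (the study's rule, or a fold change over 1.5 beside the adjusted p), the myeloid-only list (without Ptprc, Cd53, Cd52 and Laptm5) and the arrays, each of which was dropped once. Values of the other lists without CSD5 replicate 1 were added after seeing the data. Motifs were searched in RefSeq promoter windows of build GRCm38.p6. Plots came from matplotlib 3.10.9 (Python 3.11.15).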

Additional observations from a re-analysis of the deposited data

How the results depend on the processing

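The number of arrays, 3 in each group, and 1 CSD5 array that stood apart limited these results, and most myeloid-only genes lay near background outside CSD5. In CSD5 against ND14, 0 of the 35 macrophage genes passed an adjusted p under 0.05; with array weights 24 passed, of which 17 were myeloid-only, without CSD5 replicate 1 20 and 13, and by the study's rule 10 and 5. The 9 fits that leave out 1 array gave 0 to 20 and 0 to 13. In CSD14 against CSD5, 7 passed, 4 of them myeloid-only. With array weights 20 and 15 passed, by the study's rule 11 and 7, without moderation 1 and 0, and with only the 6 arrays compared 1 and 0. The fits that leave out 1 array gave 1 to 17 and 0 to 11, with the 1 being Gpnmb. In CSD14 against ND14, 5 passed, 1 of them myeloid-only, and without moderation 3 and 0, where Mpeg1 and Cd14 were lost. The fits that leave out 1 array gave 4 to 5 and 0 to 1. In the fit with array weights, CSD5 replicate 2 had a weight of 3.62 and replicates 1 and 3 had 0.329 and 0.525. The weighted CSD5 values thus rested mostly on replicate 2, and the share of all clusters called under that setting is not given here. The cause of these shifts was not tested. Without Ptprc, Cd53, Cd52 and Laptm5, which mark leukocytes in general, 21 myeloid-only genes remained, of which 1 passed for CSD14 against ND14, 0 for CSD5 against ND14 and 4 for CSD14 against CSD5.

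The median difference of the myeloid-only genes ranged over the fits that leave out 1 array from 0.31 to 0.60 in CSD5 against ND14, from -0.57 to -0.42 in CSD14 against CSD5 and from -0.10 to -0.03 in CSD14 against ND14. The median of the 10 shared genes ranged from 0.21 to 0.28, from -0.75 to -0.56 and from -0.20 to -0.10 in the same order of comparisons. In CSD5 against ND14 it was 0.13 with the mean of all clusters of a gene, 0.33 with median centring and 0.32 with quantile normalization, and in CSD14 against CSD5 it was -0.69 with array weights, -0.66 with median centring and -0.67 with quantile normalization, as against -0.58.

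Samples of the same replicate number did not deviate together, with correlations of their deviations from the group means of -0.13 to 0.06, so the numbers only name the arrays. With the replicate number as a block, 4 genes passed in CSD14 against CSD5, 3 of them myeloid-only, while 5 passed for CSD14 against ND14 and 0 for CSD5 against ND14. Of the 105 pairs of a gene and a comparison, 58 were followed singly, and none of these changed direction in any alternative. They were chosen by an unadjusted limma p under 0.05 with or without CSD5 replicate 1, which largely fixes a stable direction in advance. The other 47 had an unadjusted p of 0.05 or more with and without CSD5 replicate 1. Of these 47, 26 changed sign in some setting, at sizes of at most 0.27, and 1 was called in some setting.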
